A study of Rattus norvegicus with 10 samples.

Results

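The genes described here are the annotated noncoding RNAs and pseudogenes of a lung RNA-sequencing table. They are the rows whose biotype in the authors' table is neither protein-coding, missing nor an immunoglobulin class. Unannotated models were left out, and so were 3 rows with AABR names inside immunoglobulin-type stretches of chromosomes 3 and 6. The rule left 67 of the 1319 genes in the table, on 21 chromosomes. They comprised 34 long intergenic noncoding RNAs (lincRNAs), 10 processed pseudogenes, 9 other pseudogenes, 5 processed transcripts, 4 microRNAs (miRNAs), 2 small nuclear RNAs (snRNAs), and 1 each of an antisense RNA, a small nucleolar RNA (snoRNA) and an RNA of the miscellaneous class. The study compared lungs of 8-week-old Sprague Dawley rats, 5 wild-type (WT) libraries with 5 libraries from Cmg2-KO rats, which lack the anthrax toxin receptor CMG2 (ANTXR2). Antxr2 itself is not among the rows analysed here, so the genotype labels could not be checked against it. How the deletion was made, the sex of the animals and whether each library came from its own animal are not given in the labels, so a p-value here measures only the spread between libraries, which may be technical. Values are scaled counts, which are reads per gene after division by a size factor that the authors set for each library. Every gene in the table had an unadjusted p under 0.05 in the authors' own test of this same contrast, so the counts and directions below describe rows already selected for a difference.

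A lincRNA is a long transcript from between protein-coding genes, spliced and polyadenylated much like a messenger RNA but without a long open reading frame, and most have no known function. A processed pseudogene is a copy of a messenger RNA that was reverse transcribed and inserted elsewhere in the genome, so it lacks introns and resembles its parent transcript closely. Reads from parent and copy can therefore be assigned to one another, and the level of every pseudogene here is uncertain for that reason. snRNAs such as U6 act in splicing and snoRNAs guide chemical modification of other RNAs. A miRNA is cut from a hairpin precursor and pairs with messenger RNAs through its seed, bases 2 to 8. Mature miRNAs are too short for an ordinary RNA-sequencing library, so reads in a miRNA row cover the hairpin and the precursor or host transcript around it.

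Of the 4 miRNA rows, 2 carry a miRNA name, Mir27b and Mir301a, and both matched an entry of the RefSeq miRNA table (assembly GRCr8). Their sequences are shown because the rows were counted over exactly such a hairpin: the authors' table gives them lengths of 97 and 100 bases, as RefSeq does. In the hairpins the mature arms held by the table are in capitals, and in the mature forms the seed is in capitals.
Mir27b hairpin: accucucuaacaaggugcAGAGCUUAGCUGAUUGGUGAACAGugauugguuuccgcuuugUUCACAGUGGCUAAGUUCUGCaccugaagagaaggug
rno-miR-27b-3p: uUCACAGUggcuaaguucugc
rno-miR-27b-5p: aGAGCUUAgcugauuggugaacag
Mir301a hairpin: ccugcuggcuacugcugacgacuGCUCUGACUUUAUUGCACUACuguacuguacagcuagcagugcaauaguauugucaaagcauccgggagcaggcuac
rno-miR-301a-5p: gCUCUGACuuuauugcacuac
In GRCr8 the Mir27b hairpin is at chr17:1819147-1819243 on the minus strand and the Mir301a hairpin at chr10:72422599-72422698 on the plus strand. Among the 724 mature forms in that table, rno-miR-27a-3p has the seed of rno-miR-27b-3p and rno-miR-301b-5p that of rno-miR-301a-5p. No seed is shared between the Mir27b and Mir301a arms shown. For Mir301a that table holds rno-miR-301a-5p alone, so the seed of its other arm, and the miRNAs that share it, are not covered here.

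Most of these genes had lower mean log2 values in Cmg2-KO lung, and none passed limma's adjusted threshold. By mean log2(scaled count + 1), 45 of the 67 were lower and 22 higher in Cmg2-KO, which is 67.2% lower, where 51.8% of all 1319 genes in the table were lower and 48.2% higher. The median log2 fold change was -0.52 over the 67 genes and -0.15 over the whole table. Rows with few reads were selected only with large differences, and they are more common among the 67, so the medians are not like for like. With a mean of at least 10 scaled counts in the higher group they were -0.40 and -0.13. LincRNAs were lower in 23 of 34 cases, processed pseudogenes in 8 of 10, other pseudogenes in 5 of 9, processed transcripts in 4 of 5 and miRNAs in 3 of 4. These shares were not compared by a test. After a filter on low values, 66 of the 67 could be tested, and none had an adjusted p under 0.05 in limma, where 0.229% of the genes tested did. An unadjusted limma p under 0.05 was reached by 53 of the 66, beside 79.1% of all genes tested. By the authors' deposited table, a single gene of the 67 had an adjusted p under 0.05, the processed pseudogene LOC100360791, beside 5.46% of the listed genes. The count test of edgeR, on reads recovered from 9 libraries, also called 0 of the 66 (0.0765% of genes tested), with 43 at an unadjusted p under 0.05 (63.5% of genes tested). DESeq2 called 1 (3.75%), the lincRNA LOC100909599, with 42 at an unadjusted p under 0.05 (71.8%). Those 9 libraries leave out WT 4, the lowest WT library of LOC100909599. The genotypes did not overlap for 11 of the 67 genes, each library of one lying past every library of the other, 5 higher and 6 lower, beside 16.3% of the table (9.25% higher and 7.05% lower), so separated genotypes were about as common here as in the table. For 3 of those 11, all lower, the nearest WT and Cmg2-KO libraries held the same number of reads and only the size factors set them apart, which leaves 8 of the 67 beside 10.6% of the table (reads taken before scaling, an alternative chosen after seeing the data). Reads before scaling also carry differences in depth. Over the table they left 108 higher and 32 lower rows, from 122 and 93 in scaled counts. WT 4 was included there, although its read recovery could not be checked. With a mean of at least 10 scaled counts in the higher genotype, which 51 of the 67 had, 5 of the 11 remained. The share of the table under that minimum was not counted, so this number has no comparison.

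**Figure D1:**
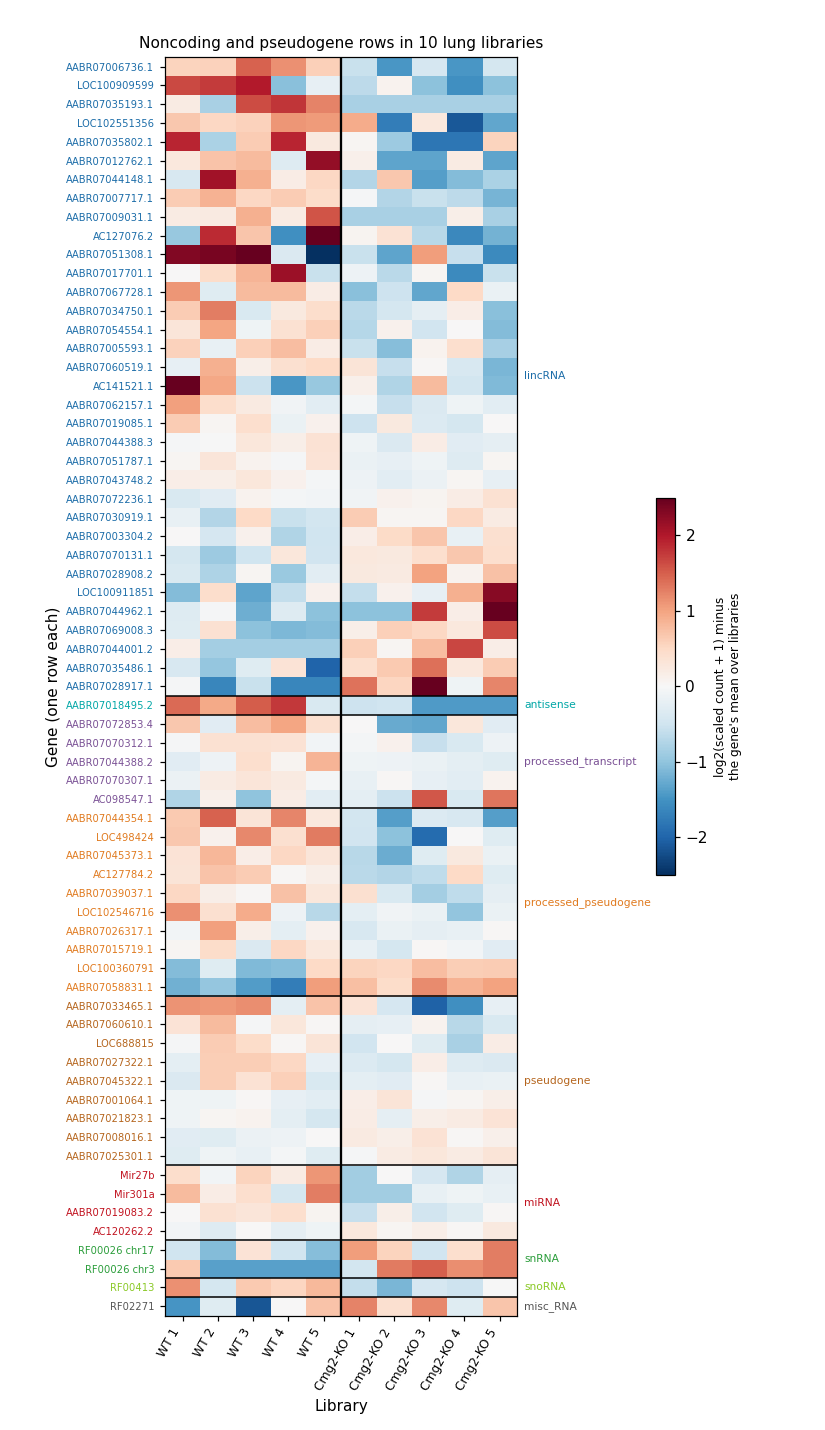
Heat map of the 67 genes (rows, grouped and coloured by biotype, ordered within a biotype by log2 fold change) in 5 WT and 5 Cmg2-KO libraries (columns). Colour is log2(scaled count + 1) minus the gene's mean over the 10 libraries, with the scale ending at 2.5 in either direction. Single libraries stand out in several rows, such as WT 5 in LOC100360791 and AABR07058831.1, and 45 of the 67 genes are lower in Cmg2-KO.

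Genes of this class were shorter and more often thinly covered than the rest of the table. Their median length was 807 bases, against 2241 bases for all listed genes, and 16 of 67 (23.9%) had a mean under 10 scaled counts in both genotypes, against 7.28% of the table. Per kb of gene length the median level was 35.8 scaled counts, against 115 for the protein-coding rows. The biotypes differed widely, with a median of 11.7 scaled counts per kb in lincRNAs, 126 in processed pseudogenes, 172 in other pseudogenes, 142 in processed transcripts and 362 in miRNA rows. The miRNA rows are only 84 to 124 bases long, so few reads give a high value per kb. Not divided by length, their median was 31.1 scaled counts, against 210.7 in processed transcripts. The highest levels belonged to the pseudogene AABR07045322.1 at 4227 scaled counts per kb and the processed pseudogene LOC100360791 at 3276. The range went down to 1.31 scaled counts per kb, in the lincRNA AABR07009031.1.

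**Figure D2:**
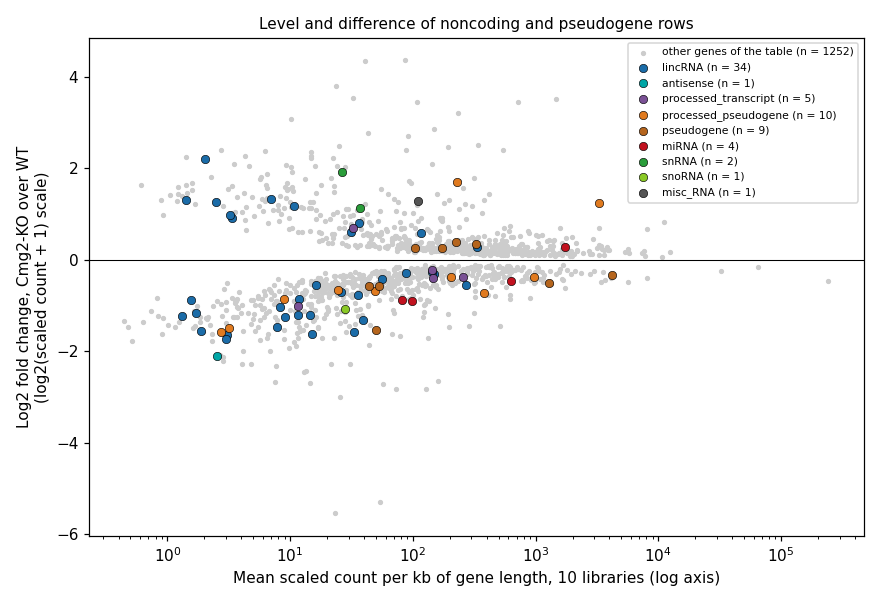
Log2 fold change (Cmg2-KO over WT, from log2(scaled count + 1) values) against the mean scaled count per kb of gene length (log axis) for the 67 genes by biotype, with the other 1252 genes of the table in grey. LincRNAs lie mostly at the low end (median 11.7 scaled counts per kb) and the pseudogenes AABR07045322.1 and LOC100360791 at the high end.

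The largest difference in mean scaled counts was in a processed pseudogene of the translationally controlled tumor protein, an abundant protein of growth and stress responses. LOC100360791 (chromosome 1, 20115995 to 20116513, plus strand, 519 bases), described as tumor protein, translationally-controlled 1, stood at 709, 1216, 695, 717 and 2116 scaled counts in WT 1 to 5 and at 2205, 2139, 2567, 2317 and 2322 in Cmg2-KO 1 to 5. Cmg2-KO libraries were all higher, but WT 5 lay just under the lowest of them while the other WT libraries were far below. The means were 1090.5 ± 614 for WT and 2310.1 ± 163 for Cmg2-KO (SD, n = 5), with a fitted log2 change of 1.23 ± 0.28 (SE; limma, adjusted p = 0.504) and the authors' deposited table gives 0.0266 as its adjusted p. A second processed pseudogene of the same length, AABR07058831.1 (chromosome 7, 138895079 to 138895597, minus strand), which has no description, had the same WT library apart from the others. It stood at 39.6, 46.7, 34.4, 27.3 and 192 scaled counts in WT and at 156, 128, 209.9, 170.1 and 186 in Cmg2-KO, so WT 5 alone of the WT libraries lay within the Cmg2-KO range. Its log2 fold change was 1.70 ± 0.45 (SE; limma, adjusted p = 0.671). Without WT 5, the log2 fold changes were 1.51 ± 0.16 for LOC100360791 and 2.18 ± 0.20 for AABR07058831.1, and both then passed limma's adjusted threshold (adjusted p = 0.0158 and 0.00758). Leaving out any other library passed neither. No listed gene carries the parent's description.

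The other 8 processed pseudogenes were all lower in Cmg2-KO on average, and none passed the adjusted threshold. LOC498424 (chromosome X, 76997285 to 76998420, plus strand), described as similar to GC-rich promoter binding protein 1-like 1, stood at 5.08, 3.11, 7.77, 4.04 and 8.41 scaled counts in the WT libraries and at 1.74, 0.879, 0, 2.84 and 2.08 in the Cmg2-KO libraries. The means were 5.68 ± 2.32 and 1.51 ± 1.10 (SD, n = 5), and the genotypes did not overlap after scaling, although WT 2 and Cmg2-KO 4 both held 3 reads. AABR07044354.1, on chromosome 20 in the region of the major histocompatibility genes (3018323 to 3019709), was as thinly covered, at 2.10 to 6.22 in WT and 0 to 1.04 in Cmg2-KO, again without overlap. Better covered was AC127784.2 (chromosome 7, 121342679 to 121343013, plus strand), at 151, 199, 186, 122 and 133 scaled counts in the WT libraries and at 74.7, 72.0, 77.3, 170.1 and 97.7 in the Cmg2-KO libraries, where 4 of the Cmg2-KO libraries lay below every WT library and Cmg2-KO 4 among them. Its log2 fold change was -0.74 ± 0.25 (SE; limma, adjusted p = 0.781). AABR07045373.1 went from 16.5 ± 3.29 in WT to 9.06 ± 3.69 in Cmg2-KO, with a single Cmg2-KO library, the fourth, inside the WT range. LOC102546716, described as nuclear ubiquitous casein and cyclin-dependent kinase substrate 1-like, lies in the chromosome 6 stretch from which AABR-named rows were left out (chromosome 6, 143661373 to 143662181, plus strand) and was kept because of its name. Its WT libraries ranged widely, from 10.5 to 40.6 scaled counts, and overlapped the Cmg2-KO range of 8.51 to 16.7. The remaining 3, AABR07026317.1, AABR07015719.1 and AABR07039037.1, had log2 fold changes of -0.38, -0.37 and -0.68, with overlapping genotypes. That of AABR07026317.1 was -0.17 without WT 2, its highest library.

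Among the 9 pseudogenes not classed as processed, the most abundant pair had WT libraries in separate sets. AABR07045322.1 (chromosome 20, 43142648 to 43143257, plus strand) stood at 1930.0, 3803, 3184, 3751 and 1911 scaled counts in the WT libraries and at 2098, 2047, 2520.0, 2175 and 2194 in the Cmg2-KO libraries. WT 1 and WT 5 were lower than every Cmg2-KO library, while WT 2, 3 and 4 were higher than all of them. AABR07027322.1 (chromosome 17, 24610493 to 24611103, minus strand) split the same WT libraries, at 628, 1148, 1141, 1067 and 644, against 591, 549, 839.7, 593 and 583 in Cmg2-KO. Their log2 fold changes were -0.34 ± 0.20 and -0.52 ± 0.20 (SE; limma, adjusted p = 1 and 0.856), and the WT means of 2916 ± 941 and 925 ± 267 (SD, n = 5) fell between the sets. Of these 9, AABR07033465.1, a row of 189 bases, had the lowest log2 fold change, -1.54 ± 0.49 (SE; limma, adjusted p = 0.761). It stood at 17.3, 16.6, 17.8, 6.07 and 12.6 scaled counts in the WT libraries and at 9.56, 5.27, 1.04, 1.89 and 6.24 in the Cmg2-KO libraries, with WT 4 inside the Cmg2-KO range. AABR07060610.1 and LOC688815, the latter described as similar to prohibitin, a mitochondrial inner-membrane scaffold protein, had log2 fold changes of -0.57 and -0.57.

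The 4 pseudogenes with higher means had small differences, and the genotypes did not overlap in 2 of them. AABR07008016.1 (chromosome 2, 38978677 to 38979020, minus strand) stood at 91.4, 89.2, 99.9, 101 and 111 scaled counts in the WT libraries and at 129, 122, 142, 112 and 121 in the Cmg2-KO libraries, without overlap. AABR07025301.1 (chromosome 16, 32509708 to 32510086, minus strand) stood at 38.6, 44.6, 42.2, 46.5 and 38.9 in WT and 46.9, 55.4, 58.5, 55.8 and 60.3 in Cmg2-KO, where the highest WT and the lowest Cmg2-KO library nearly met. Their log2 fold changes were 0.34 ± 0.11 and 0.38 ± 0.15 (SE; limma, adjusted p = 0.781 and 0.848). AABR07001064.1 and AABR07021823.1, both over 2.5 kb long at 2802 and 2610 bases, had log2 fold changes of 0.26 and 0.27, with overlapping genotypes.

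Of the 34 lincRNAs, 11 were higher in Cmg2-KO on average, and a pair of them lies near the start of chromosome 10. AABR07028908.2 (chromosome 10, 96409 to 120050, plus strand) stood at 15.2, 11.4, 21.1, 10.1 and 16.8 scaled counts in the WT libraries and at 24.3, 23.7, 41.8, 21.7 and 34.3 in the Cmg2-KO libraries. It is the only higher lincRNA whose genotypes did not overlap, with means of 14.9 ± 4.39 and 29.2 ± 8.57 (SD, n = 5) and a fitted log2 change of 0.92 ± 0.28 (SE; limma, adjusted p = 0.715). AABR07028917.1 (chromosome 10, 193351 to 197050, minus strand), 73301 bases further on and on the other strand, was listed at 2.03, 0, 1.11, 0 and 0 in WT and 6.95, 3.51, 16.7, 1.89 and 6.24 in Cmg2-KO. Cmg2-KO 3 was the highest library for both. AABR07069008.3, on chromosome 8, had a fitted log2 change of 1.26 ± 0.40 (SE; limma, adjusted p = 0.761), with WT libraries at 3.03 to 10.4 and Cmg2-KO at 8.69 to 25.99. AABR07072236.1 (chromosome 11, 61994181 to 61995549, minus strand) had the highest level of all lincRNAs per kb, 302 scaled counts per kb in WT and 364 in Cmg2-KO, and a fitted log2 change of 0.27 ± 0.11 (SE; limma, adjusted p = 0.869). AABR07003304.2 and AABR07030919.1 had log2 fold changes of 0.61 and 0.57, and AABR07044001.2 stood at or under 4.73 scaled counts in every library.

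Some higher lincRNAs rested on 1 or 2 Cmg2-KO libraries and carry the description of a protein-coding gene. AABR07044962.1 (chromosome 20, 28365988 to 28375791, plus strand), described as RAN binding protein 2, a nuclear pore component, stood at 9.14, 11.4, 4.44, 9.10 and 5.26 scaled counts in the WT libraries and at 5.21, 5.27, 41.8, 13.2 and 104 in the Cmg2-KO libraries. Only Cmg2-KO 3, 4 and 5 exceeded the WT range, the fourth barely, and without Cmg2-KO 5 the log2 fold change went from 1.17 to 0.55. LOC100911851 (chromosome 11, 27566879 to 27577691, plus strand), described as intersectin-1-like, the name of an endocytic scaffold protein, stood at 4.06, 13.5, 3.33, 6.07 and 10.5 in WT and 6.08, 10.5, 8.35, 18.9 and 50.9 in Cmg2-KO, with only the fourth and the fifth Cmg2-KO libraries above WT. Without Cmg2-KO 5 the log2 fold change of LOC100911851 went from 0.99 to 0.54. Of all 67 genes, 12 carry a description, and 5 of the lincRNAs and processed transcripts have one that names a protein-coding gene.

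Of the 23 lower lincRNAs, 3 had genotypes that did not overlap, all at few reads. AABR07007717.1 (chromosome 2, 25564884 to 25565757, plus strand) was the most even of them, at 6.09, 7.26, 5.55, 6.07 and 5.26 scaled counts in the WT libraries and at 3.48, 1.76, 2.09, 1.89 and 1.04 in the Cmg2-KO libraries. AABR07006736.1 stood at 3.05 to 6.66 in WT and 0 to 1.04 in Cmg2-KO, and AABR07009031.1 at 1.01 to 4.21 and 0 to 0.945. For AABR07009031.1 the separation came from the size factors alone, since its lowest WT libraries and Cmg2-KO 4 each held 1 read. AABR07035193.1, a row of 90 bases, was at 0 in all 5 Cmg2-KO libraries and at 1.02, 0, 4.44, 5.06 and 3.16 in WT. A count of 0 allows up to 3 reads in a library (counting error only). The WT mean was 2.73 scaled counts, which is few reads in each library, and no fold is given. It did not pass the filter and was not tested.

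In 5 lower lincRNAs the libraries of a genotype were spread widely. The naming rule took LOC102551356 and LOC100909599, and the other 3 were picked for that spread after their values were seen. LOC102551356 (chromosome 18, 62227385 to 62234905, plus strand), an uncharacterized gene that RefSeq also lists as a long noncoding RNA, stood at 96.5, 87.1, 91.0, 130.4 and 127 scaled counts in the WT libraries and at 116, 17.6, 73.1, 13.2 and 23.9 in the Cmg2-KO libraries. Cmg2-KO 2, 4 and 5 were far below every WT library, Cmg2-KO 3 was nearer, and Cmg2-KO 1 lay inside the WT range. Its log2 fold change was -1.57 ± 0.54 (SE; limma, adjusted p = 0.781) and -2.003 without Cmg2-KO 1. LOC100909599 (chromosome 1, 11982257 to 11995787, minus strand), described as a YTHDC2-like RNA helicase, stood at 25.4, 27.0, 32.2, 3.03 and 6.31 in WT and 4.35, 7.91, 3.13, 1.89 and 3.12 in Cmg2-KO. Here WT 1, 2 and 3 were high and WT 4 and 5 lay within the Cmg2-KO range. Its log2 fold change was -1.65 ± 0.62 (SE; limma, adjusted p = 0.809), and the authors' deposited table gives 0.164 as its adjusted p. DESeq2 gave an adjusted p of 0.0487, but without WT 4, the lowest WT library of this gene. AABR07051308.1 (chromosome 3, 4730990 to 4772154, plus strand) split WT in the same way, at 77.2, 79.9, 96.6, 11.1 and 0, against 9.56, 5.27, 31.3, 9.45 and 4.16 in Cmg2-KO. Other wide spreads within WT were those of AC141521.1 on chromosome 20, at 228, 42.5, 14.4, 7.08 and 10.5, and AC127076.2 on chromosome 5, at 5.08, 41.5, 17.8, 3.03 and 89.4. Against these, AC141521.1 ranged over 9.36 to 37.6 and AC127076.2 over 2.84 to 14.1 in Cmg2-KO. The log2 fold change of AC141521.1 was -0.55, and 0.22 without WT 1, so its direction rested on that library. Without WT 5, the log2 fold change of AC127076.2 went from -1.21 to -0.62, and that of AABR07051308.1 from -1.20 to -2.35, with -0.69 the weakest value of AABR07051308.1 when any other library was left out.

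**Figure D3:**
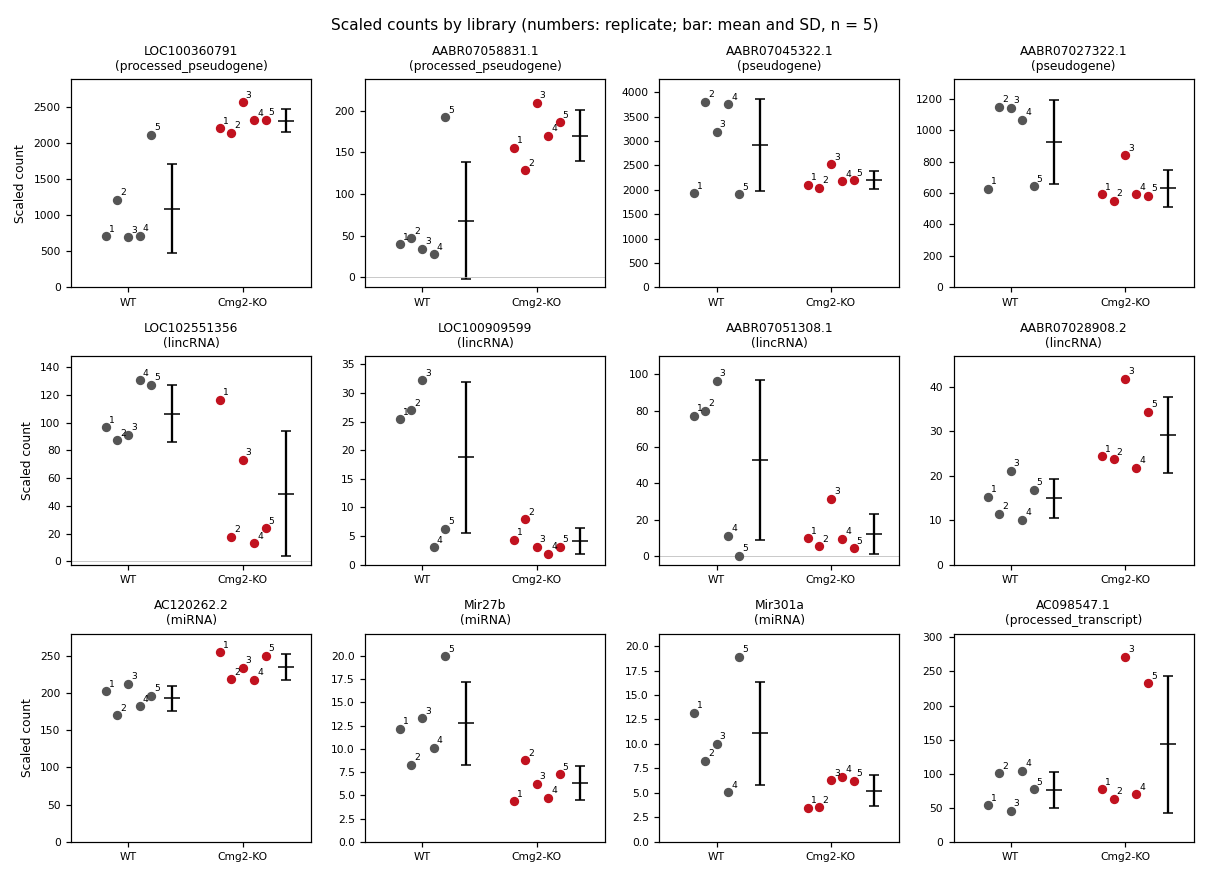
Scaled counts of 12 of the genes in each library (points, numbered by replicate; WT grey, Cmg2-KO red), with the mean and SD (n = 5) beside each group and each axis starting at or just below 0. WT 5 lies at the Cmg2-KO level for LOC100360791 and AABR07058831.1, WT 1 and 5 stand apart from WT 2 to 4 for AABR07045322.1 and AABR07027322.1, and Cmg2-KO 1 lies in the WT range for LOC102551356.

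The remaining lower lincRNAs included well covered rows with small differences and thinly covered rows with larger ones. A row with few reads reaches a p under 0.05 only if its difference is large. The part of the selection of rows in this contrast was not tested. AABR07051787.1 (chromosome 3, 21373213 to 21381013, minus strand) stood at 281, 337, 289.7, 269 and 346 scaled counts in the WT libraries and at 242, 237, 253, 219 and 284 in the Cmg2-KO libraries, where Cmg2-KO 5 alone of the Cmg2-KO libraries lay inside the WT range, and had a fitted log2 change of -0.30 ± 0.10 (SE; limma, adjusted p = 0.781). AABR07043748.2 stood at 102 to 129 in WT and 87.9 to 109.7 in Cmg2-KO. AABR07062157.1 (chromosome 4, 162999534 to 163008828, plus strand) stood at 47.3 to 116 and 37.8 to 54.8, and its log2 fold change went from -0.54 to -0.36 without WT 1. AABR07005593.1, AABR07060519.1, AABR07054554.1, AABR07034750.1 and AABR07044148.1 had log2 fold changes of -0.78, -0.70, -0.87, -0.89 and -1.31, none with separated genotypes. AABR07035802.1, AABR07012762.1 and AABR07017701.1 had means under 10 scaled counts in both genotypes and log2 fold changes of -1.57, -1.46 and -1.16, also with overlap.

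The single row classed as antisense, a transcript read from the strand opposite a gene, was at 0 or a single read in every Cmg2-KO library. AABR07018495.2 (chromosome 15, 61662865 to 61663964, minus strand) stood at 6.09, 4.15, 6.66, 8.09 and 1.05 scaled counts in the WT libraries and at 0.869, 0.879, 0, 0 and 0 in the Cmg2-KO libraries. WT 5, Cmg2-KO 1 and Cmg2-KO 2 each held 1 read, so the genotypes were set apart by the size factors alone, and the fitted log2 change of -2.11 ± 0.46 (SE; limma, adjusted p = 0.474) rests on few reads. The labels do not say that strand was kept, so reads of an antisense row and its partner cannot be told apart.

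Processed transcripts, a class of noncoding RNAs, were the best covered of the larger biotypes in reads per row, and 4 of 5 were lower. AABR07072853.4 (chromosome 3, 10384888 to 10432854, minus strand) stood at 114, 58.1, 122, 143 and 93.6 scaled counts in the WT libraries and at 71.3, 29.0, 28.2, 87.0 and 58.2 in the Cmg2-KO libraries. Cmg2-KO 2 and 3 lay under every WT library and the others overlapped them, with a fitted log2 change of -1.02 ± 0.36 (SE; limma, adjusted p = 0.802). AABR07070307.1 and AABR07070312.1, which lie within 1 Mb of each other on chromosome 8 (64811941 to 64833697 and 65119746 to 65402275), had log2 fold changes of -0.22 ± 0.10 and -0.40 ± 0.15 (SE; limma, adjusted p = 1 and 0.825). AABR07044388.2 (chromosome 20, 4436419 to 4486680, plus strand) was the longest of the 67 genes, at 10743 bases, and stood at 2174, 2436, 3533, 2783 and 4774 in WT and 2469, 2419, 2367, 2232 and 2133 in Cmg2-KO. Its Cmg2-KO values were close together, and WT 5 was the highest library. Without WT 5 its log2 fold change went from -0.38 to -0.21.

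The named miRNA rows held few reads, and the clone-named ones more. Mir27b (chromosome 17, 823461 to 823557, plus strand) stood at 12.2, 8.30, 13.3, 10.1 and 19.98 scaled counts in the WT libraries and at 4.35, 8.79, 6.27, 4.73 and 7.28 in the Cmg2-KO libraries, with Cmg2-KO 2 the only Cmg2-KO library inside the WT range. Its log2 fold change was -0.90 ± 0.31 (SE; limma, adjusted p = 0.781). Mir301a (chromosome 10, 74417746 to 74417845, plus strand) stood at 13.2, 8.30, 9.99, 5.06 and 18.9 in WT and 3.48, 3.51, 6.27, 6.62 and 6.24 in Cmg2-KO, where WT 4 lay among the Cmg2-KO libraries, with a fitted log2 change of -0.89 ± 0.37 (SE; limma, adjusted p = 0.872). In both, WT 5 was the highest library. AABR07019083.2, a clone-named miRNA row on chromosome 15 (87390486 to 87390569), stood at 51.8, 67.4, 63.3, 68.8 and 53.6 in WT and 33.9, 57.1, 36.6, 41.6 and 52.0 in Cmg2-KO, and the lincRNA AABR07019085.1 begins 14272 bases from it on the same strand. That lincRNA was also lower on average, with log2 fold changes of -0.47 ± 0.19 and -0.42 ± 0.19 for the pair (SE; limma, adjusted p = 0.869 and 0.925). AC120262.2 (chromosome 1, 198938282 to 198938405, plus strand), the highest miRNA row per kb, was the single higher one, at 202, 170.1, 212, 182 and 196 in WT and 255, 218, 234, 217 and 249.5 in Cmg2-KO. Its genotypes did not overlap, and the log2 fold change was 0.29 ± 0.09 (SE; limma, adjusted p = 0.761).

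Both snRNA rows carry the Rfam identifier RF00026, that of U6 spliceosomal RNA, of which the genome holds many near-identical copies, so their reads are uncertain. The copy on chromosome 17 (18319689 to 18319795) stood at 2.03, 1.04, 4.44, 2.02 and 1.05 scaled counts in the WT libraries and at 7.82, 5.27, 2.09, 4.73 and 9.36 in the Cmg2-KO libraries. The copy on chromosome 3 (11056735 to 11056830) was listed at 3.05, 0, 0, 0 and 0 in WT and at 0.869, 5.27, 6.27, 4.73 and 5.20 in Cmg2-KO. WT 1 and Cmg2-KO 1 each went against the other 4 libraries of their genotype at that copy, and the levels are too near the 3 reads that a count of 0 allows for a fold. The snoRNA row RF00413 (chromosome 1, 282154248 to 282154379) stood at 8.13, 2.07, 5.55, 5.06 and 6.31 in WT and 1.74, 0.879, 2.09, 1.89 and 3.12 in Cmg2-KO, and WT 2 lay inside the Cmg2-KO range. RF02271, the miscellaneous RNA on the X chromosome (119210067 to 119210217), stood at 4.06, 10.4, 2.22, 13.1 and 22.1 in WT and 32.2, 17.6, 31.3, 10.4 and 21.8 in Cmg2-KO. WT 5 exceeded 3 of the Cmg2-KO libraries there, and the log2 fold change was 1.28 ± 0.55 (SE; limma, adjusted p = 0.891).

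Few of these genes have a listed protein-coding neighbour, and the directions of the pairs were mixed. Of 6 with such a gene overlapping them or within 10 kb, 2 had the same direction, and of the 3 that overlap one, none did. Mir301a lies inside Ska2, a spindle and kinetochore gene, on the same strand. Ska2 stood at 252, 208, 224, 251 and 305 scaled counts in the WT libraries and at 302, 300.5, 321, 281 and 265 in the Cmg2-KO libraries, with a fitted log2 change of 0.25 ± 0.11 against -0.89 ± 0.37 for Mir301a (SE; limma, adjusted p = 0.895 and 0.872). The processed transcript AABR07044388.2 and the lincRNA AABR07044388.3, 7892 bases apart in the histocompatibility region, both lie within LOC103689965, a complement C4-like gene on chromosome 20 (4302347 to 4508214). LOC103689965 stood at 4817, 8429, 7291, 6410.1 and 5755 in WT and 9184, 10568, 8591, 10437 and 14158 in Cmg2-KO, higher in every Cmg2-KO library than in any WT library, and the authors' deposited table gives 0.0146 as its adjusted p, where limma gave 0.533. Its log2 fold change of 0.70 ± 0.16 stands against -0.38 ± 0.18 and -0.31 ± 0.13 for the noncoding rows (SE). The lincRNA AABR07044388.3 is on the strand of the C4-like gene and AABR07044388.2 on the other.

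Among the neighbours that do not overlap, the lincRNA AABR07070131.1 lies 478 bases from Ncam1, the neural cell adhesion molecule gene, on the other strand. AABR07070131.1 stood at 16.3, 11.4, 15.5, 27.3 and 15.8 scaled counts in the WT libraries and at 26.9, 26.4, 30.3, 35.9 and 30.1 in the Cmg2-KO libraries, and Ncam1 at 93.5, 80.9, 94.3, 110.2 and 46.3 and 168, 133, 132, 156 and 89.4. Both were higher on average, by log2 fold changes of 0.81 ± 0.25 and 0.69 ± 0.25 (SE; limma, adjusted p = 0.727 and 0.804), while WT 4 for AABR07070131.1, and WT 1, 3 and 4 for Ncam1, overlapped the Cmg2-KO range. AABR07035486.1, 4355 bases from the growth factor gene Pdgfa, was also higher like its neighbour, with log2 fold changes of 1.34 ± 0.45 and 0.17 ± 0.06 (SE; limma, adjusted p = 0.781 and 0.781). AABR07072236.1 lies 6421 bases from Tigit, an inhibitory receptor gene of T and natural killer cells, which was lower on average, from 9.18 ± 4.29 to 3.19 ± 1.67 scaled counts (SD, n = 5).

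A further 3 genes carry the description of a protein-coding gene that is itself listed. The pseudogene LOC498424 was lower while Gpbp1l1, the chromosome 5 gene its description names, was higher, at 852, 749.9, 818, 801 and 708 scaled counts in the WT libraries and at 1061, 998, 1033, 964 and 989.7 in the Cmg2-KO libraries. Gpbp1l1 did not overlap between genotypes, with a fitted log2 change of 0.36 ± 0.06 (SE; limma, adjusted p = 0.183) and the authors' deposited table gives 0.000187 as its adjusted p. At 1.51 to 5.68 scaled counts on average, the pseudogene's reads are few beside the parent's 786 and 1009. The processed transcript AC098547.1 (chromosome 20, 3910555 to 3917426, minus strand), described as bromodomain containing 2, a chromatin reader, stood at 53.8, 101, 45.5, 104 and 76.8 in WT and 77.3, 63.3, 272, 70.0 and 233 in Cmg2-KO. Cmg2-KO 3 and 5 were high and the other Cmg2-KO libraries lay in the WT range, and the log2 fold change went from 0.69 to 0.38 without Cmg2-KO 3. The listed gene Brd2 itself (chromosome 20, 5262120 to 5269337) stood at 280.4, 109, 40.0, 253 and 85.2 and 76.5, 36.9, 47.0, 61.4 and 58.2. Its WT 1 and WT 4 were high, so the libraries that stood apart differed between AC098547.1 and Brd2. The lincRNA AABR07067728.1 (chromosome 9, 59564498 to 59594416, minus strand) is described as dynein axonemal heavy chain 7, a motor of motile cilia, like the gene Dnah7 further along chromosome 9. Both were lower on average, at 18.3 ± 6.78 and 8.94 ± 5.12 for the lincRNA and 247 ± 81.3 and 165 ± 44.7 for Dnah7 (SD, n = 5), and WT 2 was the lowest WT library of each.

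**Figure D4:**
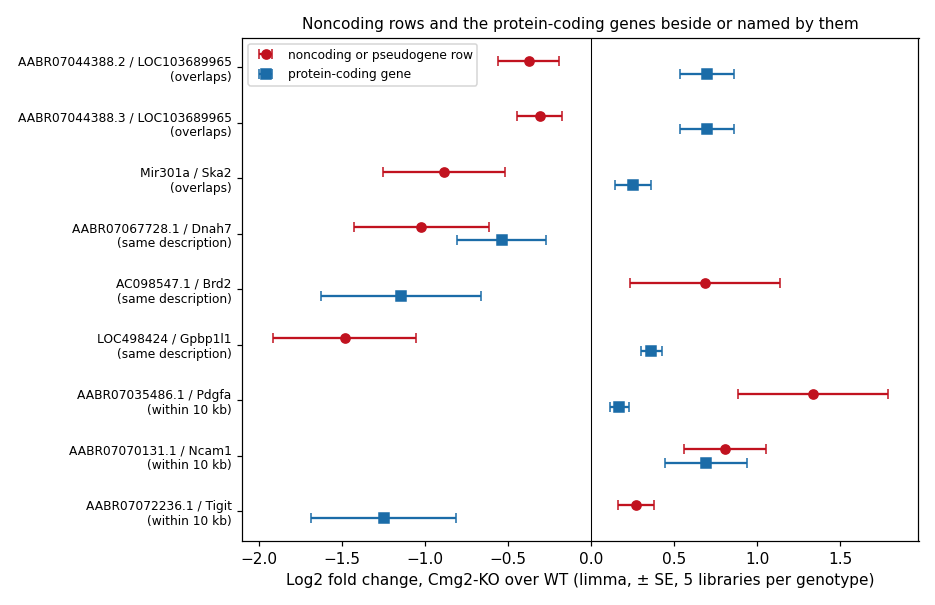
Log2 fold changes (limma, Cmg2-KO over WT, ± SE, 5 libraries per genotype) of 9 pairs of a noncoding or pseudogene row (red circles) and a listed protein-coding gene (blue squares) that overlaps it, lies within 10 kb or has the same description. The 3 overlapping pairs and those of LOC498424 with Gpbp1l1, AC098547.1 with Brd2 and AABR07072236.1 with Tigit lie on opposite sides of 0.

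Lists of other noncoding RNA genes, and of genes that process them, had few listed members. None of 68 known noncoding RNAs, such as Malat1, Neat1, H19, Meg3, Gas5 and the small nucleolar RNA host genes, was among the genes of the table analysed here. The same held for 80 genes of noncoding RNA processing, covering miRNA processing, snoRNA particles, nonsense-mediated decay, the RNA exosome, RNA polymerase III and snRNA particle assembly. A gene outside the table has no value here, so nothing is said of its level. Of 12 protein-coding partners of known noncoding RNAs 3 were listed, the imprinted growth factor gene Igf2, its receptor gene Igf2r and Dnm3. Mean scaled counts in WT and then Cmg2-KO were 134 ± 12.3 and 96.2 ± 36.3 for Igf2, 4268 ± 181 and 4755 ± 214 for Igf2r, and 348 ± 45.4 and 270.5 ± 22.6 for Dnm3 (SD, n = 5). None of the 3 had an adjusted p under 0.05, whether from limma or from the authors' deposited table. A list of Xist and 4 Y-linked genes had 0 listed members.

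The libraries carried abundant lung transcripts, with Sftpb, a surfactant protein gene of alveolar type 2 cells, between 42133 and 65237 scaled counts and Scgb1a1, the club cell secretory gene, between 84205 and 195238. Markers of some cell types were listed alongside these genes. All 5 listed of 7 smooth muscle markers were lower in Cmg2-KO on average, with summed levels in scaled counts of 23297 to 39064 in WT and 19532 to 29852 in Cmg2-KO. All 4 listed of 5 mesothelial markers were higher, with sums of 1940.1 to 3348 in WT and 2328 to 4451 in Cmg2-KO, and the ranges overlapped in both cases. The listed markers of club cells (2 of 4), fibroblasts (2 of 5) and alveolar type 2 cells (1 of 5) were lower on average, with sums of 144242 to 196461, 1957 to 5256 and 45665 to 65237 in WT and 84326 to 176812, 1509 to 2669 and 42133 to 48747 in Cmg2-KO. The 1 listed of 4 B and plasma cell markers was higher, at 1743 to 4279 in WT and 3422 to 6336 in Cmg2-KO, and the other 10 marker lists had no listed gene. None of the 15 listed markers of any type was at 0 in any library. Their part in the differences above was not tested, and in whole lung fewer cells of a type and less RNA per cell cannot be told apart.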

How the data were processed

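RNA-seq of whole lung gave 10 libraries, 5 WT and 5 Cmg2-KO, prepared with a kit that the labels do not state to keep strand. The labels' design text mentions a larger number of libraries for each genotype, and 5 of each are analysed here. The submitters' processing notes name HISAT2 2.0.5 and featureCounts 1.5.0-p3. For the genome build, the annotation and the authors' test, no name is given in the sources used. The deposited values are a signal: within each library they are whole multiples of 1 constant (tolerance 0.02 reads), hence read counts divided by a size factor, and the authors' genotype means are in the same unit. The authors' log2 fold change, the same as a linear fold (ratio), the unadjusted and adjusted p-value and the gene length came from the deposited table. It lists only genes with the authors' p under 0.05, which is 6.63% of the 19894 genes that the authors' adjusted p-values imply. If none of those genes differed, about 995 would still be listed at that threshold, so part of the rows may be listed by chance.

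Per kb values divide scaled counts by the deposited gene length. limma 3.58.1 (R 4.3.3; trend and robust) was fitted to log2(scaled count + 1) of all rows above 0.5 in at least 5 libraries (1308 genes), a plan made for scaled values in place of a count model. Fold changes are on that scale, so those of genes with few reads are understated. Benjamini-Hochberg adjustment ran over 19894 genes, with genes not listed taken as not passing. edgeR 4.0.16 and DESeq2 1.42.0 were added after seeing the data, on the whole reads recovered for 100% of values in 9 libraries. WT 4 was not used there, since a read in it equals 1.01 scaled counts, too close to 1 for that recovery to be checked. Over those 9 libraries the reads in listed genes numbered 1289524 to 1620198, and total depth is unknown. No libraries of one genotype agreed within sampling noise. The procedure was tested on simulated data, with changes placed only in well covered genes and an even spread between libraries. That test therefore does not cover members with few reads.

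The members and the gene lists were chosen with earlier results of these data known. Genes named were those past the authors' adjusted threshold, those without overlap and a mean of at least 10 scaled counts in the higher group, the 2 of largest log2 fold change in each direction per biotype of 3 or more (same minimum), all members of smaller biotypes, the highest per kb in each biotype, and the listed gene overlapping or nearest within 10 kb. The other members named were chosen after their values were seen.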

Additional observations from a re-analysis of the deposited data

Results flagged for a closer look

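Among the 27 genes named by rule, each genotype's 5 libraries were searched for a highest or lowest library standing apart. The search used log2(scaled count + 1) and marked a library whose gap to the next exceeded 0.71 of the group's range on that scale. It marked 3 of 54 groups, where chance alone marks about 1 in 20 for normally spread values. That rate is only a rough guide here. A single library above 0 among libraries at 0 is always marked, and many of these genes were named for their separation or fold change. In AABR07058831.1, WT 5 stood at 192 scaled counts while the other WT libraries lay between 27.3 and 46.7. In the chromosome 3 copy of RF00026, WT 1 stood at 3.05 scaled counts while the other WT libraries were at 0, and Cmg2-KO 1 stood at 0.869 while the other Cmg2-KO libraries lay between 4.73 and 6.27.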

How the results depend on the processing

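limma called 3 genes of the table and 0 of the 66 tested members. The count over the table was 1 with edgeR and 49 with DESeq2 (both on recovered reads, without WT 4), and 257 when p-values were adjusted over the listed genes tested, which are fewer. The members called were then 0, 1 and 12. Leaving out 1 library at a time gave 1 to 6 genes and 0 to 2 members, with 2 members without WT 5. With the replicate number as a block, 0 genes were called. Whether the numbers pair the samples was not tested. The correlations of same-numbered deviations were 0.0789, 0.0873, -0.0156, 0.0698 and 0.0218, and WT 1, 2 and 4 correlated best with their own number. Quantile normalization moved the members' median log2 fold change to -0.40. A mean of at least 10 scaled counts left 5 of 51 members without overlap, with no share of the table counted beside it. Members whose nearest listed gene outside the class had the same direction numbered 0 of 3 for overlapping genes, against 2 of 6 within 10 kb. Within 100 kb, where some of those neighbours are unannotated models, they numbered 7 of 16. The other alternatives, which covered size factors, pseudocounts, filters and the limma settings, kept these counts within 1.5 times of the main value and the medians within their spread. For the genes named by rule, 555 recomputed values kept direction and side of the threshold, 8 passed it where the main value did not, and none reversed. The cause of these shifts was not tested. Members at a few reads per library are limited by depth.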
